A study of Mus musculus with 4 samples.

Results

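The aminoacyl-tRNA synthetases of 4 mouse mammary tumors are described here. Members were chosen by gene symbol alone, as the rows named for an amino acid's 1-letter code followed by ars, with or without a final 2, together with Eprs, Ears2, the phenylalanine enzymes, Tarsl2, Aimp1 and Aimp2. This gave 40 of the 23746 rows in the tables, and the rule uses no measured value. The set itself was taken up with earlier results of these tumors known, so its counts are no independent evidence of a direction. Those results include the study's own gene set enrichment analysis, which reported genes of aminoacyl tRNA biosynthesis as higher in double-mutant tumors. The 40 rows comprise 21 cytosolic enzymes, 17 mitochondrial enzymes and 2 scaffold proteins, Aimp1 and Aimp2. A final 2 usually marks a mitochondrial enzyme, but Aimp2 is a scaffold and Tarsl2 is a cytosolic threonine enzyme, so both were placed by their known role. All 40 enter the counts, sums and medians, and 39 are described singly.

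Aminoacyl-tRNA synthetases join each amino acid to its own tRNA, the step that fixes the genetic code at the ribosome. Cells keep a cytosolic set and a mitochondrial set, both encoded in the nucleus, and most amino acids have a separate gene for each. Gars and Kars each serve both compartments from a single gene. Mitochondria make glutaminyl-tRNA by charging with glutamate first and then amidating, so they have no glutamine enzyme of their own. Eprs joins the glutamate and proline enzymes in a single protein, and Farsa and Farsb are the subunits of a single phenylalanine enzyme. Several cytosolic enzymes sit in a large assembly, the multi-synthetase complex, held together by Aimp1, Aimp2 and Eef1e1.

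The triple-mutant group held tumors 26043 and 26044 from WapCre;Rank;Brca1;p53 females, and the double-mutant group held tumors 26048 and 26050 from WapCre;Brca1;p53 females. All 4 tumors therefore carried floxed Brca1 and p53 and the WapCre transgene, whose Cre acts in luminal and basal mammary epithelium, and the groups differ in the floxed Rank allele. The comparison asks which transcripts differ in tumors that arose with and without Rank. The study calls the females littermates. It describes triple-mutant tumors as a class as intermediate in grade, and double-mutant tumors as either high or intermediate in grade. The age of the females, the grade of each sequenced tumor and which tumors shared a litter are not given in the sources used here. The part of grade therefore cannot be told apart from that of genotype, and p-values measure only the spread between these samples. Whole tumor tissue was used, in which a lower level can come from fewer cells of a type or from less RNA per cell, and these cannot be told apart.

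Each tumor had 12150 to 12681 genes at 1 FPKM or more (fragments per kilobase of transcript, scaled to the mapped fragments), and the number of reads is unknown because FPKM keeps no plain record of it. Rank (Tnfrsf11a) was at 2.07 and 0.962 FPKM in the triple-mutant tumors and 10.6 and 11.9 FPKM in the double-mutant tumors. All 5 epithelial markers were found, and their summed FPKM was 408 to 2803 in the triple-mutant and 1874 to 2214 in the double-mutant tumors. Tumor 26044 stood apart with the 408. Basal markers summed to 204 to 1236 FPKM against 4.46 to 9.72. Fibroblast markers (7 of 7 found) summed to 123 to 205 FPKM against 433 to 899, and macrophage markers (4 of 5 found) to 43.9 to 47.9 FPKM against 82.0 to 83.3. The fibroblast markers were mixed, with Col1a1, Col1a2, Col3a1 and Lum higher in both double-mutant tumors. Pdgfra went the other way, at 2.90 and 19.1 FPKM against 1.63 and 1.44 FPKM. Dcn, Pdgfrb and the macrophage marker Csf1r overlapped between the groups. Adipocyte markers (5 of 5) summed to 7.58 to 261 FPKM against 31.5 to 1390, endothelial markers (4 of 4) to 19.0 to 64.0 FPKM against 19.0 to 34.4, and lymphocyte markers (6 of 6) to 2.32 to 4.99 FPKM against 4.49 to 5.94. Adipoq and Plin1 were at 0 FPKM in tumor 26044, and Lep was at 0 FPKM in all tumors but 26048. The part of these cell types in the results below was not tested.

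All 40 members passed the filter of at least 1 FPKM in at least 2 tumors. Cytosolic enzymes were the more abundant transcripts, with a mean FPKM over the tumors of 5.99 to 146 and a median of 52.9, against 2.75 to 33.2 and a median of 11.1 for the mitochondrial enzymes. The highest member was Gars and the lowest Wars2, the mitochondrial tryptophan enzyme. Wars2 was at 2.53 and 2.23 FPKM in the triple-mutant tumors and 3.82 and 2.42 FPKM in the double-mutant tumors, and the groups overlapped. The summed FPKM of the cytosolic enzymes was 988 and 763 in the triple-mutant and 1411 and 1376 in the double-mutant tumors. That of the mitochondrial enzymes was 205 and 192 against 212 and 234. Both sums were therefore above the triple-mutant values in both double-mutant tumors, and the cytosolic sum was 4.83 and 3.97 times the mitochondrial sum in the triple-mutant and 6.67 and 5.87 times in the double-mutant tumors. These ratios include Gars, which alone made up 26.0% of the cytosolic sum in tumor 26048 and so raised its ratio most.

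**Figure D1:**
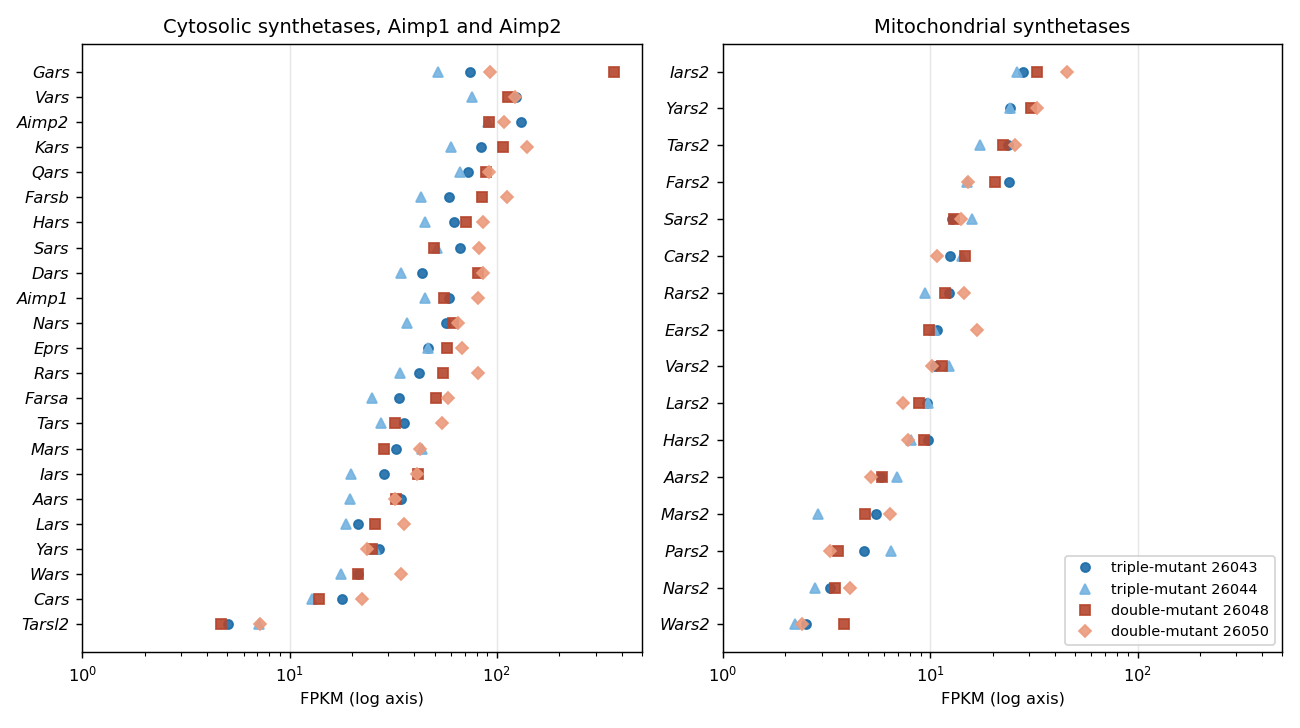
FPKM of 39 of the 40 members in each of the 4 tumors on a log axis, with cytosolic and scaffold members and mitochondrial members in separate panels and 1 symbol per tumor. Cytosolic enzymes lie higher, with a median mean FPKM of 52.9 against 11.1, and Gars in tumor 26048 is the farthest right point.

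The cytosolic enzymes were mostly higher in the double-mutant tumors. Both double-mutant tumors were above both triple-mutant tumors for 12 of the 21 (57.1%), against 22.9% of the 12752 genes tested. The opposite order held for 1 of 21 (Yars), against 21.3% of all genes. The fitted difference was lower in the triple-mutant tumors for 18 of 21, against 51.6% of all genes. The median log2 fold change (triple-mutant minus double-mutant, on log2(FPKM + 1)) was -0.46, against -0.02 over all genes, and the median ratio of mean FPKM, double over triple, was 1.37. No member was called at an adjusted p of 0.05 by limma with Benjamini-Hochberg adjustment over all 12752 genes, a threshold that 0% of genes passed. The smallest adjusted p of a member was 0.409. At an unadjusted p under 0.05, limma gave 3 members (Dars, Farsb and Farsa), all lower in the triple-mutant tumors, where 3.91% of all genes were lower and 5.91% higher at that level. For a single gene, the smallest p that an exact permutation of 2 against 2 tumors allows is 0.333.

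**Figure D2:**
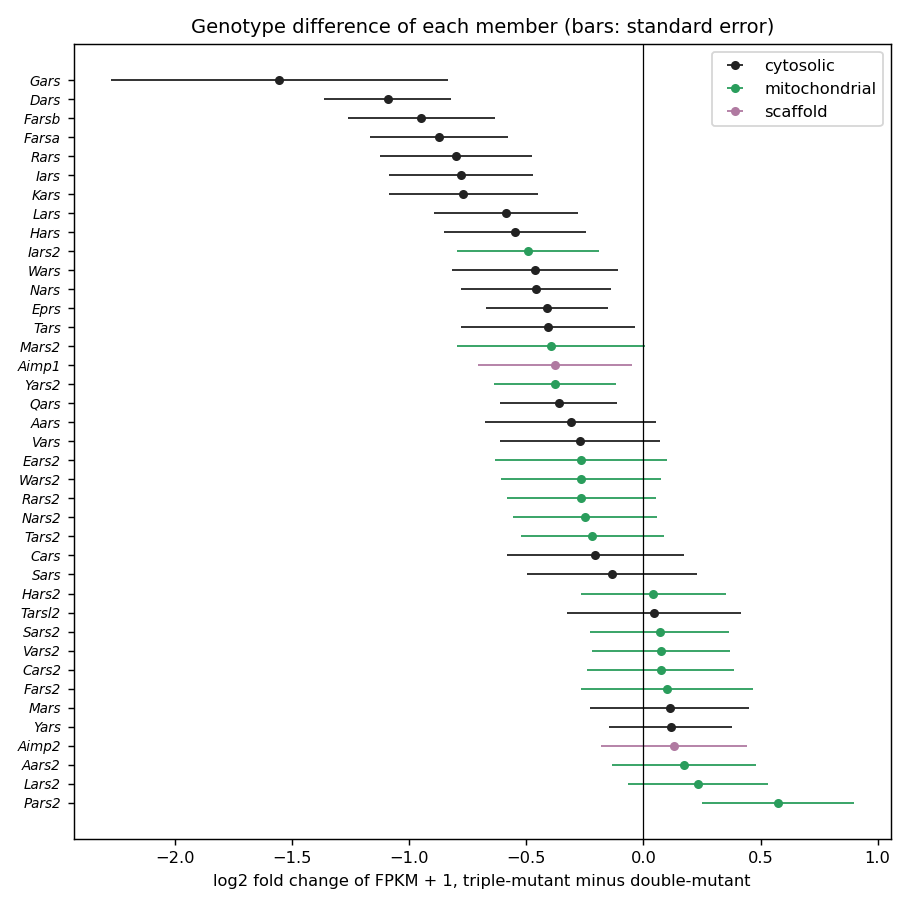
Log2 fold change of 39 of the 40 members on the log2(FPKM + 1) scale, triple-mutant minus double-mutant, with bars of 1 standard error from limma; colours mark the compartment. Cytosolic members reach from -1.55 (Gars) to 0.12 (Yars), and mitochondrial members from -0.49 (Iars2) to 0.57 (Pars2).

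Dars, the aspartate enzyme (chr1:128363707-128417416 on mm10, exons and introns together as in the tables), had the smallest p of the members. It was at 43.4 and 34.6 FPKM in the triple-mutant and 81.4 and 86.0 FPKM in the double-mutant tumors. The means were 39.0 ± 6.20 and 83.7 ± 3.26 FPKM (SD, n = 2 each), and the log2 fold change was -1.09 (SE 0.27, limma adjusted p = 0.409). The groups did not overlap, and leaving out any 1 tumor gave values between -1.25 and -0.93. The 9 genes tested within 1000 kb of Dars were all lower in the triple-mutant tumors, with a median log2 fold change of -0.54.

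Farsb (chr1:78424836-78488846) encodes the beta subunit of the phenylalanine enzyme. It was at 58.5 and 43.0 FPKM in the triple-mutant and 85.2 and 112 FPKM in the double-mutant tumors, with a log2 fold change of -0.95 (SE 0.31, limma adjusted p = 0.485). Farsa (chr8:84856986-84869257), the alpha subunit, lay at 33.9 and 25.0 FPKM against 50.7 and 57.8 FPKM, with -0.87 (SE 0.30, limma adjusted p = 0.487). Both subunits were lowest in 26044 and highest in 26050, an order that other members such as Dars and Kars shared. Of 49 genes tested within 1000 kb of Farsa 42 were lower in the triple-mutant tumors (median -0.50), and of 4 near Farsb 3 were (median -0.76).

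Rars (chr11:35808381-35834528), the arginine enzyme, was at 42.1 and 33.9 FPKM in the triple-mutant and 55.0 and 80.7 FPKM in the double-mutant tumors (log2 fold change -0.80, SE 0.32, limma adjusted p = 0.525). For Iars (chr13:49682130-49734267), the isoleucine enzyme, the values were 28.5 and 19.7 FPKM against 41.4 and 41.4 FPKM (-0.78, SE 0.31, limma adjusted p = 0.519). Kars (chr8:111993440-112011305), which charges lysine in both compartments, lay at 84.0 and 60.3 FPKM against 107 and 139 FPKM (-0.77, SE 0.32, limma adjusted p = 0.532). In each of them the triple-mutant tumor 26044 was lowest and the groups did not overlap. Lars, the leucine enzyme, had a smaller difference, at 21.4 and 18.6 FPKM against 25.9 and 35.7 FPKM (-0.59, SE 0.31, limma adjusted p = 0.584). Hars, the histidine enzyme, was at 62.2 and 45.2 FPKM against 71.1 and 85.4 FPKM (-0.55, SE 0.30, limma adjusted p = 0.598). Single tumors moved these values, Rars to -0.53 and Lars to -0.36 without 26050 and Hars to -0.32 without 26044. The 14 genes near Iars had a median log2 fold change of 0.18, the 22 near Hars 0.10 and the 5 near Lars 0.23, whereas 17 of the 19 near Kars (median -0.47) and 3 of the 4 near Rars (median -0.68) were lower in the triple-mutant tumors.

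The other 12 cytosolic members differed by log2 fold changes of -0.46 to 0.12. Nars (asparagine), Eprs and Qars (glutamine) were above both triple-mutant tumors in both double-mutant tumors, with log2 fold changes of -0.46, -0.41 and -0.36. Nars was at -0.16 without 26044 and -0.76 without 26043, and Eprs at -0.18 with the midpoint of the Cufflinks interval in place of the FPKM. Wars (tryptophan), Tars and Tarsl2 (threonine), Aars (alanine), Vars (valine), Cars (cysteine), Sars (serine) and Mars (methionine) overlapped between the groups, from -0.46 for Wars to 0.11 for Mars. Yars, the tyrosine enzyme, was slightly higher in both triple-mutant tumors, at 26.9 and 25.9 FPKM against 24.9 and 23.7 FPKM (log2 fold change 0.12, limma adjusted p = 0.897). By structural class, the 9 class I enzymes had a median log2 fold change of -0.36 and the 11 class II enzymes of -0.55, with Eprs, which joins both classes, left out.

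Gars, the glycine enzyme (chr6:55038001-55079504), had the most negative log2 fold change and the widest spread of all members. It was at 74.4 and 51.8 FPKM in the triple-mutant tumors and 366 and 92.4 FPKM in the double-mutant tumors. The means were 63.1 ± 16.0 and 229 ± 194 FPKM (SD, n = 2 each), and the log2 fold change was -1.55 (SE 0.72, limma adjusted p = 0.552). Tumor 26048 carried most of it, since without that tumor the log2 fold change was -0.57 and without 26050 it was -2.54. Gars alone made up 26.0% of the summed cytosolic FPKM in tumor 26048 and 6.71% to 7.53% in the other 3. Without Gars the summed cytosolic FPKM was 914 and 712 in the triple-mutant and 1045 and 1284 in the double-mutant tumors, so the groups still did not overlap.

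Genes near Gars were also high in tumor 26048. Of 14 genes tested within 1000 kb, 13 were higher in 26048 than in 26050, against 54.1% of all genes, and the median difference was 2.14 log2 units against 0.05 over all genes. In 11 of the 14 the highest of the 4 tumors was 26048. Against the mean of the other 3 tumors, Gars was 2.35 log2 units higher in 26048 and its neighbours had a median of 1.68 (range -0.69 to 4.13), with 12 of 14 above 0. Over all genes the median was 0.04 and 53.6% were above 0. The tumor and the gene were picked for this view after their values were seen. Qrsl1, a subunit of the amidase that completes mitochondrial glutaminyl-tRNA, was the like case among the partner genes, with 11.9 and 128 FPKM in the triple-mutant and 8.37 and 10.3 FPKM in the double-mutant tumors. It was 3.54 log2 units higher in tumor 26044 than the mean of the others, and its 10 neighbours had a median of 3.0, with 9 above 0, against -0.14 and 41.0% over all genes. Copy number was not measured, so its part in either region was not tested.

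**Figure D3:**
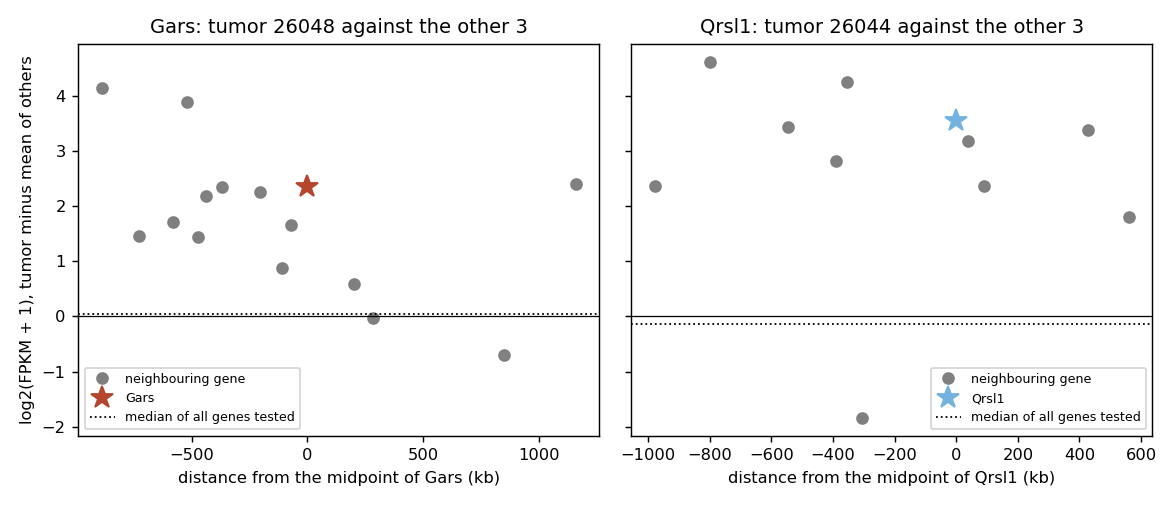
Log2(FPKM + 1) in 1 tumor minus the mean of the other 3 for Gars (tumor 26048) and Qrsl1 (tumor 26044) and for each tested gene within 1000 kb, against the distance in kb between gene midpoints; dotted lines are medians of all genes. Of the 14 neighbours of Gars 12 lie above 0, and of the 10 of Qrsl1 9 do.

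Promoters of 6 cytosolic enzymes are shown because they hold either of a pair of short motifs searched on both strands. These are TGATGNAA, the letters of the C/EBP-ATF response element at which Atf4 acts in amino acid shortage, and CACGTG, the E-box bound by Myc and related factors, which reads the same on both strands. The motifs share no overlapping match here. RefSeq (GRCm38.p6) gave a promoter for 30 of the 40 members, and Cars, Hars, Hars2, Lars, Nars, Pars2, Rars, Vars and Wars were among those without one. TGATGNAA was found in 5 of the 30 (16.7%: Aars, Gars, Iars, Tars, Yars), against 3.97% of 32851 promoters, and CACGTG in 5 of the 30 (16.7%: Aars, Ears2, Farsb, Iars, Tars), against 7.15%. A match describes letters and is not evidence of binding. The windows below run from 250 bases before the start to 30 bases after it and lie at chr6:55037751-55038030 (plus strand) for Gars, chr8:111033592-111033871 (plus) for Aars, chr13:49681880-49682159 (plus) for Iars, chr15:11399629-11399908 (minus) for Tars, chr4:129189653-129189932 (plus) for Yars and chr1:78488868-78489147 (minus) for Farsb. Runs of 8 capitals mark TGATGNAA on either strand and runs of 6 mark CACGTG.
Gars: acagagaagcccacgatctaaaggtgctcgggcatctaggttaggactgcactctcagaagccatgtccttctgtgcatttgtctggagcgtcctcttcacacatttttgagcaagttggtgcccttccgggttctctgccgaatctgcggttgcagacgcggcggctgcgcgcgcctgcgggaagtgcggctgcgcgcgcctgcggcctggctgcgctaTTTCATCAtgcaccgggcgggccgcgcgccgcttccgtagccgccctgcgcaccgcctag
Aars: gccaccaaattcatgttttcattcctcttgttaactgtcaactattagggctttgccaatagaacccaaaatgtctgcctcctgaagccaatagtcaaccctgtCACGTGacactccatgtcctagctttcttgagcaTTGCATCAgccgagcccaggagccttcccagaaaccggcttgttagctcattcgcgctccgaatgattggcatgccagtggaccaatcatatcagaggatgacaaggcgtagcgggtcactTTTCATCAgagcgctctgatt
Iars: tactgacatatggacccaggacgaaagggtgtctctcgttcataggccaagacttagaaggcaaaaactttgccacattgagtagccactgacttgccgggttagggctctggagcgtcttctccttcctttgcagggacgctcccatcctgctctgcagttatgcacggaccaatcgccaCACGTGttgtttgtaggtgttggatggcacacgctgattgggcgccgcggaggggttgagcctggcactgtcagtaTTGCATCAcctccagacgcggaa
Tars: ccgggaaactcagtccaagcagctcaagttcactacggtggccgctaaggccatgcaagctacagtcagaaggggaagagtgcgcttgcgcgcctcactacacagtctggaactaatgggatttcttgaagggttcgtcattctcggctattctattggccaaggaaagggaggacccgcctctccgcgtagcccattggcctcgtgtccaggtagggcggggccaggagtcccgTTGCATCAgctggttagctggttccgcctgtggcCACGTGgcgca
Yars: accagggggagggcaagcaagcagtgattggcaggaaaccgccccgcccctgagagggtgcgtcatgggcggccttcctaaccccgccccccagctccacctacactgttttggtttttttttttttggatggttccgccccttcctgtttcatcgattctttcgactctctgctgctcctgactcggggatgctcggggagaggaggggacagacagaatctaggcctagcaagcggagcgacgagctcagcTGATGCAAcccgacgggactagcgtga
Farsb: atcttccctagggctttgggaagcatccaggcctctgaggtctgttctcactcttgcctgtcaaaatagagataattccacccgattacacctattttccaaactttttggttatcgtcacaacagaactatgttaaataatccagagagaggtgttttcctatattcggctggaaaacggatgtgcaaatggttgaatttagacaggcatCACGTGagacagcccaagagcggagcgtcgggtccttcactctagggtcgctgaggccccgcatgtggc

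The motif positions varied. The response element began 30 bases before the start in Gars and 15 before it in Tars, 112 bases before and again 10 after it in Aars, 8 after it in Iars and 4 after it in Yars. The E-box began 146 bases before the start in Aars, 69 before it in Iars, 39 before it in Farsb and 20 after it in Tars. Members with the response element differed in how their tumors were ordered. Aars lay at 34.4 and 19.6 FPKM in the triple-mutant and 32.6 and 32.3 FPKM in the double-mutant tumors, and Tars at 35.4 and 27.6 FPKM against 32.2 and 54.1 FPKM, so that both overlapped, while Gars and Iars did not overlap and Yars had the opposite order.

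The multi-synthetase complex had 10 members in the list, Dars, Eprs, Iars, Kars, Lars, Mars, Qars, Rars, Aimp1 and Aimp2. Both double-mutant tumors were above both triple-mutant tumors for 7 of them (22.9% of all genes) and the opposite order held for 0 (21.3% of all genes), and the median log2 fold change was -0.50. The 13 cytosolic enzymes outside the complex had 5 and 1, beside the same shares of all genes, with a median of -0.41. Of the scaffolds, Aimp1 had a log2 fold change of -0.38 and Aimp2 of 0.13, and both overlapped between the groups. Aimp1 was at -0.12 without 26050, -0.19 without 26044, -0.64 without 26048 and -0.16 at the interval midpoint. Eef1e1, the remaining scaffold, was at 45.1 and 29.2 FPKM in the triple-mutant and 56.6 and 81.5 FPKM in the double-mutant tumors (log2 fold change -0.88, SE 0.36, limma adjusted p = 0.532), without overlap. The genes near Eef1e1 had a median log2 fold change of -0.05.

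Mitochondrial enzymes had a median closer to that of all genes. Of the 17, 3 (Iars2, Yars2 and Nars2) were higher in both double-mutant tumors (17.6%, against 22.9% of all genes). In both triple-mutant tumors 2 (Lars2 and Pars2) were higher (11.8%, against 21.3% of all genes). The fitted difference was lower in the triple-mutant tumors for 9 of 17 (52.9%, against 51.6% of all genes), and the median log2 fold change was -0.22. That median was -0.027 without 26044, -0.018 without 26048 and -0.10 without 26050, and the 3 became 8 without 26043 (45.1% of all genes) or 26048 (34.6%) and 5 without 26044 (31.9%) or 26050 (36.3%), since a lone tumor makes the order easier to meet. Pars2, the mitochondrial proline enzyme (chr4:106651069-106655282), was the member with the largest difference in this set. It was at 4.82 and 6.50 FPKM in the triple-mutant and 3.58 and 3.30 FPKM in the double-mutant tumors, opposite in direction to most cytosolic enzymes (log2 fold change 0.57, SE 0.32, limma adjusted p = 0.601). The others lay between -0.49 (Iars2, isoleucine) and 0.23 (Lars2, leucine), and without 26050 these were -0.25 and 0.12. Mars2, Yars2, Ears2, Wars2, Rars2, Nars2 and Tars2 had negative values, and Hars2, Sars2, Vars2, Cars2, Fars2 and Aars2 had values above 0.

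The sets were also compared tumor by tumor. As a deviation from each gene's 4-tumor mean, the median cytosolic enzyme was at -0.14 and -0.49 log2 units in the triple-mutant tumors 26043 and 26044 and at 0.13 and 0.40 in the double-mutant tumors 26048 and 26050. The median mitochondrial enzyme was at -0.04 and -0.16 against 0.02 and 0.02, and that of all genes at 0.06 and -0.10 against 0.03 and -0.02. Tumors of the same genotype also differed, since the median difference between 26043 and 26044 was 0.36 log2 units for the cytosolic enzymes and that between 26050 and 26048 was 0.26. Tumor 26044, with the lowest cytosolic median, also had the lowest summed epithelial markers, though its Krt19 (194 FPKM) exceeded both double-mutant tumors (139 and 56.7 FPKM). Without it, 26043 was the single triple-mutant tumor, the cytosolic median log2 fold change was -0.32 and 12 of 21 cytosolic enzymes were higher in both double-mutant tumors, where 31.9% of all genes were.

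**Figure D4:**
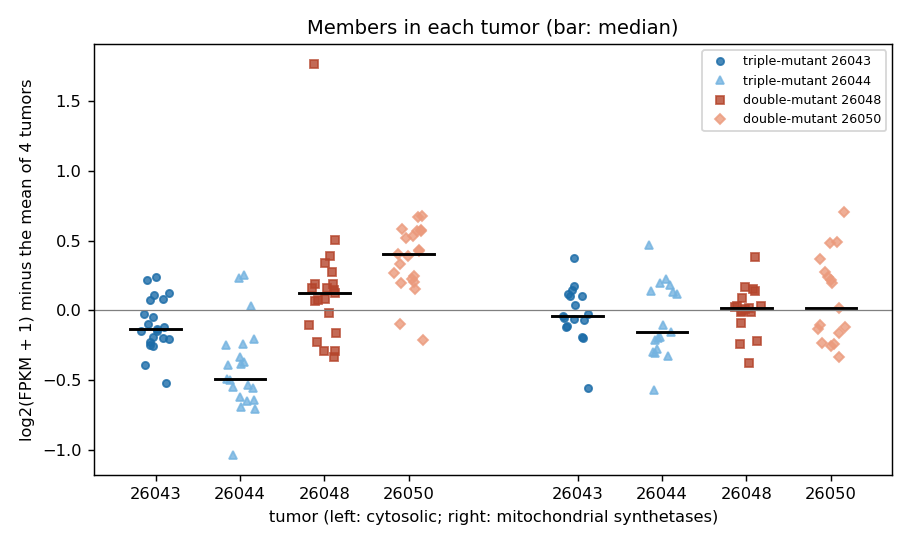
Log2(FPKM + 1) of each synthetase minus its mean over the 4 tumors, by tumor, for the 21 cytosolic (left) and 17 mitochondrial enzymes (right); each point is a gene and each bar the median. Cytosolic medians run from -0.49 in tumor 26044 to 0.40 in tumor 26050, and mitochondrial medians from -0.16 to 0.02.

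Pairs of enzymes for the same amino acid were set side by side, which compares 2 transcripts in the same tumor. Any scaling of the tumor as a whole cancels in their FPKM ratio. It does not fully cancel in log2 fold changes of FPKM + 1, which understate changes of low genes. Cytosolic log2 fold changes were more negative in 15 of 17 pairs, with a median difference of -0.29. The ratio of FPKM, cytosolic over mitochondrial, was higher in both double-mutant tumors in 6 pairs (Farsb to Fars2, Eprs to Pars2, Farsa to Fars2, Lars to Lars2, Hars to Hars2 and Rars to Rars2) and in both triple-mutant tumors in 1 (Yars to Yars2). Farsb to Fars2 had ratios of 2.42 and 2.86 in the triple-mutant and 4.15 and 7.33 in the double-mutant tumors. Eprs to Pars2 had 9.69 and 7.18 against 16.0 and 20.7. Yars to Yars2 had 1.11 and 1.07 against 0.816 and 0.718. Over all pairs and tumors the ratio ranged from 0.718 to 20.7, and in 14 of the 17 pairs the cytosolic transcript was the higher in every tumor. Pairs share members (Eprs and Fars2 each enter 2), so the 17 are not independent. The same shares among other pairs of genes were not computed, so these counts only describe the 17 pairs.

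**Figure D5:**
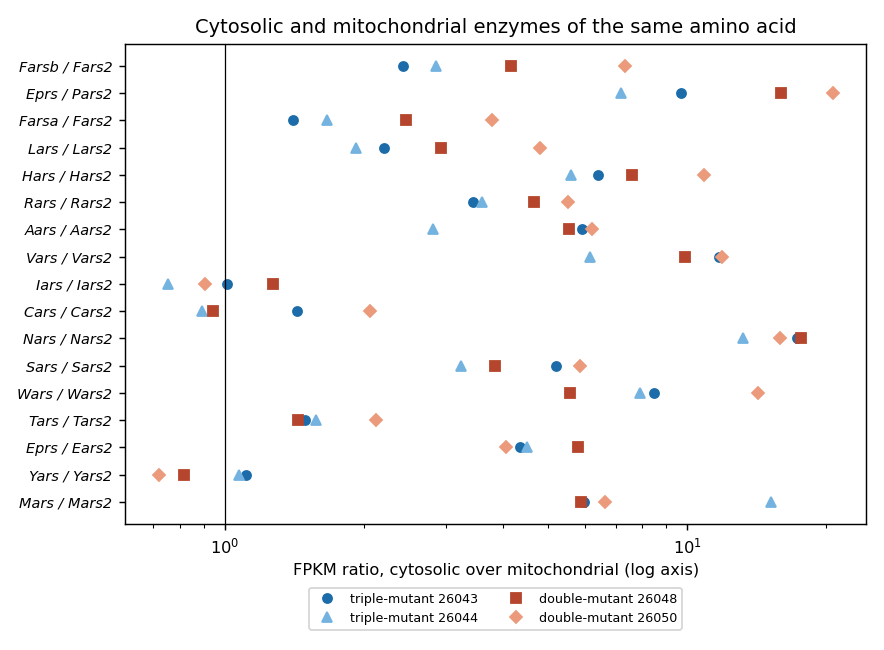
Ratio of FPKM, cytosolic over mitochondrial enzyme of the same amino acid, for 17 pairs on a log axis, with 1 symbol per tumor and a line at 1. Ratios run from 0.718 (Yars to Yars2, tumor 26050) to 20.7 (Eprs to Pars2, tumor 26050).

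Genes that work with the synthetases had no common direction. Of 13 listed symbols 10 were found and tested, with a median log2 fold change of 0.07. Higher in both double-mutant tumors were 2 (20.0%, against 22.9% of all genes). Higher in both triple-mutant tumors were also 2 (20.0%, against 21.3% of all genes). Mtfmt, which formylates mitochondrial initiator methionyl-tRNA, was higher in both double-mutant tumors (log2 fold change -0.46), and Pstk, a kinase of the selenocysteine tRNA pathway, was higher in both triple-mutant tumors (0.42), each short of the threshold. Of the factors that bring charged tRNA to the ribosome 6 were tested, with a median log2 fold change of -0.23. All 6 were negative, against 51.6% of all genes. Only 2 (Eef1b2 and Tsfm) were higher in both double-mutant tumors (33.3%, against 22.9% of all genes). Eef1a1, Eef1d, Eef1g and Tufm overlapped between the groups. Eef1b2, an exchange factor for the carrier Eef1a1, was at 365 and 422 FPKM in the triple-mutant and 545 and 653 FPKM in the double-mutant tumors (-0.60, SE 0.28, limma adjusted p = 0.559). Eef1a2 did not pass the filter.

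Transcripts of the amino acid response, by which uncharged tRNA acts on the kinase Gcn2 (Eif2ak4) and the factor Atf4 to raise synthetase genes among others, had no common direction. Of 24 listed genes 23 were tested, with a median log2 fold change of 0.13. Atf4 was at 155 and 128 FPKM in the triple-mutant and 169 and 144 FPKM in the double-mutant tumors (-0.14). Eif2ak4 was at 6.15 and 5.26 FPKM against 6.62 and 7.22 FPKM (-0.24). Asns, the asparagine synthetase, lay at 75.5 and 32.8 FPKM against 45.4 and 45.3 FPKM (0.13). Atf4 and Asns overlapped between the groups, and Eif2ak4 did not. Trib3, a pseudokinase, was at 10.2 and 22.3 FPKM against 64.9 and 43.1 FPKM (-1.74, SE 0.48, limma adjusted p = 0.452). Sesn2, a leucine sensor, had the opposite order, at 7.92 and 12.4 FPKM against 5.23 and 3.51 FPKM (1.04, limma adjusted p = 0.508). Atf5, a related factor, was at 101 and 76.5 FPKM against 55.4 and 40.0 FPKM (0.89, limma adjusted p = 0.503). Trib3 was thus higher in both double-mutant tumors, while Sesn2 and Atf5 were higher in both triple-mutant tumors. Ddit3, a stress factor whose gene overlaps Mars, was also higher in both triple-mutant tumors, with a log2 fold change of 0.80, and Chac1, which degrades glutathione, was at 0.19 and overlapped.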

How the data were processed

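PolyA RNA of 4 tumors was made into dUTP strand-specific libraries and sequenced as 50-bp single-end reads. According to the study's methods and the submitters' processing notes, the authors aligned reads to mm10 with Tophat 2.0.10 and bowtie 0.12.9, and the deposited FPKM of each gene with the interval bounds came from Cufflinks 2.1.1. The notes also list HTSeq and DESeq2 1.6.2, and read counts were not used here. The 23746 rows of the 4 tables were joined on symbol and position, and the 12752 genes that reached 1 FPKM in 2 or more tumors were fitted as log2(FPKM + 1) with limma 3.58.1 (R 4.3.3, trend) for the triple-mutant minus double-mutant difference. P-values were adjusted over all of them by Benjamini-Hochberg. Fold changes on this scale understate those of low genes. Whole-read steps were not found in the low FPKM values (the commonest step held 1.38% to 3.30% of ratios), so depth is unknown.

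Members and gene lists were chosen with earlier results of these data known, so lists are given by counts and medians beside all genes and no list was tested. Values in each tumor were given for the 10 members with an absolute log2 fold change of at least 0.5, the highest and lowest member, genes shown by sequence and Wars, which was added after its values were seen. Of the 40 members, 17 had FPKM inside the Cufflinks interval in all tumors and 15 outside it in all 4. The interval midpoint was therefore tried as an alternative. Median half-widths of the interval were 5.55% to 6.47% of the midpoint over the members and cover a tumor's own measurement. Loci of Aars, Aimp2, Hars, Iars2, Mars, Rars2, Wars and Yars overlap another coding gene. The single values of 1 mitochondrial member and of 1 lymphocyte marker are not reported here. The fit was tested on simulated data. Other alternatives were a pseudocount of 0.1, no filter or one of 5 FPKM, TPM rescaling, equal medians, quantile normalization, no trend, status OK genes and each tumor left out. Promoters came from RefSeq. Tables were handled in pandas 2.3.3 and numpy 2.4.6 under Python 3.11.15 and drawn with matplotlib 3.10.9.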

Additional observations from a re-analysis of the deposited data

How the results depend on the processing

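The cytosolic median log2 fold change stayed negative under all 13 alternatives, at -0.68 to -0.32 with a tumor left out, and the number of cytosolic enzymes higher in both double-mutant tumors was 12 to 17 with a tumor left out, where 31.9% to 45.1% of all genes were. The multi-synthetase complex median was -0.71 to -0.35 with a tumor left out. The mitochondrial median of -0.22 was -0.088 with a filter of 5 FPKM, -0.11 at the interval midpoint and -0.22 to -0.018 with a tumor left out. The count of 3 mitochondrial enzymes higher in both double-mutant tumors became 6 with equal medians (25.7% of all genes), 6 after quantile normalization (25.6%), 8 without 26043 (45.1%) or 26048 (34.6%) and 5 without 26044 (31.9%) or 26050 (36.3%). Genes called numbered 0, and 6 after quantile normalization, 5 without the trend and 1 at the interval midpoint, with 1252 at an unadjusted p under 0.05. No member was called under any alternative. The amino acid response median of 0.13 was -0.026 to 0.29 with a tumor left out and turned negative without 26048. Of the 39 members described singly, 26 kept their sign throughout and 13 did not, with 1 of 348 values reversed when all tumors were used (Sars2, -0.077 at the interval midpoint) and 20 of 156 with a tumor left out. The ranges with a tumor left out were -0.70 to 0.082 for Aars, -0.13 to 0.39 for Aimp2, -0.53 to 0.12 for Cars, -0.13 to 0.28 for Cars2, -0.62 to 0.088 for Ears2, -0.22 to 0.43 for Fars2, -0.079 to 0.16 for Hars2, -0.17 to 0.39 for Mars, -0.49 to 0.22 for Sars, -0.080 to 0.22 for Sars2, -0.22 to 0.31 for Tarsl2, -0.62 to 0.079 for Vars and -0.027 to 0.17 for Vars2. With the same sign but moved by over 1.5 times, the ranges were -1.07 to -0.53 for Rars, -0.81 to -0.36 for Lars, -0.77 to -0.32 for Hars, -0.76 to -0.16 for Nars, -0.80 to -0.13 for Wars, -0.77 to -0.041 for Tars, -0.64 to -0.12 for Aimp1, -0.73 to -0.25 for Iars2, 0.12 to 0.35 for Lars2, -0.77 to -0.025 for Mars2, -0.34 to -0.16 for Nars2, -0.44 to -0.091 for Rars2, -0.43 to -0.0043 for Tars2, -0.51 to -0.018 for Wars2 and -2.54 to -0.57 for Gars. For Aars2, likewise of the same sign, the range was 0.064 to 0.28. The cause was not tested. The lone tumor of a group was assumed to vary like the others. The median of all genes moved to -0.12 without 26043. No paired analysis was possible because which tumors shared a litter is not given. Read depth is unknown.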

Other observations

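Wars, an interferon-inducible enzyme in many cells, was set beside the interferon response genes after its values were seen. Of 13 such genes 12 were tested, with a median log2 fold change of 0.57 and 0 without overlap between the groups, beside 22.9% and 21.3% of all genes in either order. Isg15, a ubiquitin-like protein, was at 346 and 28.4 FPKM in the triple-mutant and 48.2 and 33.5 FPKM in the double-mutant tumors, and Psmb9, an immunoproteasome subunit, at 144 and 21.1 FPKM against 48.2 and 13.6 FPKM. Cxcl10, a chemokine, was at 58.1 and 1.58 FPKM against 54.7 and 12.9 FPKM. Isg15 and Psmb9 were highest in tumor 26043 and Cxcl10 was high in 26043 and 26048, whereas Wars was at 21.4 and 17.6 FPKM against 21.3 and 34.5 FPKM and so was highest in tumor 26050. The part of interferon in the level of Wars was not tested.

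Proliferation genes had a median log2 fold change of -0.36 over 10 tested, with 5 higher in both double-mutant tumors, as were 22.9% of all genes, and 0 in both triple-mutant tumors, as were 21.3%. Rrm2, a ribonucleotide reductase subunit, was at 39.7 and 27.4 FPKM in the triple-mutant and 64.6 and 150 FPKM in the double-mutant tumors (limma adjusted p = 0.480). Mcm5, a replicative helicase subunit, was at 36.5 and 17.6 FPKM against 44.1 and 59.7 FPKM. Cdk1, the mitotic kinase, was at 51.8 and 216 FPKM against 37.6 and 65.3 FPKM and was highest in tumor 26044. The part of proliferation in the synthetase levels was not tested.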
